A study of Mus musculus with 4 samples.

Results

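Klf2, Klf4 and Nos3 are 3 of the 27998 genes counted in single cells of the mouse heart, and they were taken here as a set because they are the classical genes of the endothelial response to blood flow. The genes were chosen by name and not by a measured threshold. Their levels were read in cells sorted by marker UMIs (unique molecular identifiers, 1 per captured transcript) into endocardial, coronary, artery and large artery groups. Each level was set beside that of Fos, Jun and Atf3, which rise within minutes to hours when tissue is digested, because handling of that kind is also known to raise Klf2 and Klf4.

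Cells came from hearts of C57Bl6J mice at embryonic day 12 (E12), embryonic day 15 (E15), postnatal day 2 (P2) and from adults 8 weeks old, and the labels name no genetic change or treatment in any group. They were sorted for CD31, a surface protein of endothelium, and against CD45, a surface protein of blood cells, then frozen, thawed and put on the 10x Genomics v2 3' platform. Each stage is 1 library of pooled hearts, with 37 animals pooled for E12, 48 for E15, 21 for P2 and 6 for the adult. Hearts at E12 and E15 were digested with Collagenase/Dispase and cleared of dead cells with a kit, whereas P2 and adult hearts went through an added Collagenase II step and were sorted again for live cells. Adult samples alone also had their red blood cells lysed. Adults were killed by cervical dislocation, and embryos and pups by decapitation. A stage, its library, its digestion, its live cell selection and these other steps therefore cannot be told apart, and no test between stages was possible. Cells of 1 library are not replicates. All 95% intervals below cover counting error only, and differences between animals are in none of them.

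Endothelial cells sense the drag of flowing blood through junction proteins, channels and receptors, and part of this signal runs through a kinase cascade, MEKK2 or MEKK3, MEK5 and ERK5, to MEF2 factors that switch on Klf2 and Klf4. KLF2 and KLF4 are zinc finger transcription factors that bind CACCC boxes and raise a quiescent, anti-clotting program that includes thrombomodulin (Thbd) and endothelial nitric oxide synthase (Nos3). NOS3 makes nitric oxide from arginine and so relaxes the muscle of the vessel wall. In the embryonic heart Klf2 is known from the endocardium and the valves, where flow is fast. A protein complex encoded by Krit1, Ccm2 and Pdcd10, held at junctions by Heg1, restrains the MEKK3 route. Klf4 and, to a lesser degree, Klf2 also belong to the genes that respond early to serum and stress in many cell types.

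In the mm10 mouse genome Klf2 (ENSMUSG00000055148) lies on chromosome 8 at 72319033 to 72321656 on the plus strand with 3 exons, Klf4 (ENSMUSG00000003032) on chromosome 4 at 55527143 to 55532466 on the minus strand with 5 exons, and Nos3 (ENSMUSG00000028978) on chromosome 5 at 24364810 to 24384474 on the plus strand with 26 exons, by the GENCODE vM21 annotation. No annotated gene overlapped Klf2 or Klf4. Nos3 was overlapped on the minus strand by Atg9b and by the antisense transcript Gm15587. Whether strand was used in counting is not given in the sources used here, and these genes held few UMIs, with 1.72 to 6.93 CPM (UMIs of a gene per 1000000 UMIs of its cells) for Atg9b and 0.264 to 1.54 CPM for Gm15587 over all kept cells of the 4 libraries.

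The promoters of the 2 KLF genes are shown because Klf2 and Klf4 were both higher at P2 than at E15 and MEF2 factors are the last step of the flow cascade. Each sequence is the sense strand from 250 bases before the RefSeq transcription start to 50 bases after it, from build GRCm38.p6, at chr8:72318812-72319111 (plus strand) for Klf2 and chr4:55532426-55532725 (minus strand) for Klf4. Capitals mark a match to the MEF2 site.
Klf2: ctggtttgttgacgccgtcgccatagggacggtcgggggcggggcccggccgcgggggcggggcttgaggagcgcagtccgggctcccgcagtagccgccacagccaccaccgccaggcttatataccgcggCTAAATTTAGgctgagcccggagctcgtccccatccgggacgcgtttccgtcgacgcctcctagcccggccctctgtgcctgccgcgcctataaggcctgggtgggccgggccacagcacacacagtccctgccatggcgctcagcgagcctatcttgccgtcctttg
Klf4: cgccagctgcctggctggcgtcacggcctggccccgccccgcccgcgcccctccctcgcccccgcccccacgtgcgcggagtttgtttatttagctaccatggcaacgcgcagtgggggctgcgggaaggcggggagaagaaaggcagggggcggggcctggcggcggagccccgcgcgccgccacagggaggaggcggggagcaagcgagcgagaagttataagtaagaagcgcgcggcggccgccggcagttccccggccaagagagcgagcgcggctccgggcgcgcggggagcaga
The MEF2 site of the Klf2 promoter lies at -118 to -109 from the start, and 0.557% of 32851 promoters of this length hold such a match. Klf4 held no match to the MEF2 site in its window. Neither promoter held a CArG box (1.63% of promoters) or an AP-1 site, written TGACTCA or TGAGTCA (5.2%), and Klf2 alone of the pair held a CACCC box (57.5%), which occurred 1 time on the minus strand. Both strands were searched, and the 2 matches found do not overlap. A match is a run of letters and not a site shown to be bound. Nos3 was not among the promoters used here.

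After the limits on barcodes the E12 library kept 5569 cells, the E15 library 5880, the P2 library 5721 and the adult library 4087, with a median of 1228, 998, 4504 and 1484 UMIs per cell in this order. Between 25 and 60 cell barcodes were shared by any 2 libraries. Endocardial cells, with more UMIs of Npr3 and Tmem108 than of Fabp4, Cldn5 and Aplnr, numbered 1659, 2054, 1060 and 65 in the same order. Coronary cells, with at least 2 UMIs of Fabp4, Cldn5 and Aplnr and more of these than of Npr3 and Tmem108, numbered 107, 1190, 4463 and 3943. The coronary rule counts UMIs, and it took 78.0% of the P2 cells. Of the adult cells, which were shallower, it took 96.5%, so the adult coronary group is nearly the whole library. The part of depth in these shares was not tested. Among the P2 coronary cells 814 also met a rule for dividing cells and 433 a rule for vein cells. In the E12 coronary group the endocardial genes Nfatc1, Cytl1, Plvap and Hapln1, which neither the coronary nor the endocardial rule used, stood at 269 CPM (57 UMIs). The coronary genes Gpihbp1, Car4 and Rgcc, also unused, stood at 66.2 CPM (14 UMIs). At E15 these were 138 and 715 CPM. E12 endocardial cells held 628 CPM of these endocardial and 11.0 CPM of these coronary genes, so the 2 E12 groups differed in the direction of their names. Within the E12 coronary group the coronary genes were still the lower list, and its cells are read as cells of that rule only. Artery cells, with at least 3 UMIs of Cxcl12, Glul, Alpl and Nebl, and large artery cells, with at least 2 UMIs of Fbln5, Eln, Gkn3 and Clu, were read only at P2 and in the adult. At E12 and E15 the cells of the artery rule went against the label. They held 163 and 691 CPM of the endothelial genes Pecam1, Cdh5 and Egfl7, against 2050 and 4226 CPM of the fibroblast and mesenchyme genes Col1a1, Dcn, Pdgfra and Col3a1, and 0 of 308 and 17 of 64 were also coronary. At P2 the artery marker Gja5, which no rule used, stood at 128 CPM in artery cells against 1.44 CPM in other coronary cells (those in neither artery group), and in the adult at 67.7 against 7.40 CPM, where the rule took 44.1% of the cells. E12 endocardial cells held 660 CPM of the fibroblast and mesenchyme, 628 CPM of the endocardial and 970 CPM of the endothelial genes. Of the 65 adult endocardial cells 22 also met the vein rule and 36 the large artery rule. Their endocardial genes stood at 3608 CPM against 166 CPM in adult coronary cells, but Nfatc1 alone at 19.8 against 21.6 CPM.

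Klf2 was higher in the P2 library than in both embryonic libraries, in endocardial and in coronary cells, and lower again in the adult library. In coronary cells it stood at 132 CPM at E12 (87.9 to 191, 28 UMIs), 225 CPM at E15 (202 to 251, 326 UMIs), 1462 CPM at P2 (1446 to 1478, 32206 UMIs) and 574 CPM in the adult (556 to 593, 3779 UMIs). The P2 library was thus the highest and the E12 library the lowest, and none of the 4 intervals overlapped. The order of E12 and E15 was not stable, since their ratio of 1.70 (E15 over E12) turned to 0.406 with cells thinned to 500 UMIs before the rules were applied. The level was 6.49 times as high at P2 as at E15 (5.82 to 7.26) and in the adult it was 0.393 times that at P2 (0.380 to 0.406). The E15 coronary level is low, with Klf2 in a share of thinned cells no higher than in stromal cells, and the part of free RNA in it was not tested. Among cells with no UMI of Fos, Jun or Atf3 at full depth, a rule that leaves fewer cells in a deeper library, these ratios were 3.45 and 0.738. Among all genes with a mean of at least 10 CPM, 14.7% were at least 2-fold higher and 3.2% at least 2-fold lower in P2 than in E15 coronary cells, and 8.7% were higher and 8.64% lower in adult than in P2 coronary cells.

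Klf2 in endocardial cells followed the same order from E12 to P2 and had its lowest level in the adult. Its level was 244 CPM at E12 (224 to 265), 445 CPM at E15 (418 to 474), 1539 CPM at P2 (1505 to 1574) and 152 CPM in the adult (96.2 to 228). The adult value rests on 23 UMIs in 65 cells, and its interval overlapped that of E12 alone. The P2 level was 3.46 times the E15 level (3.24 to 3.70), where 11.1% of genes were at least 2-fold higher and 3.8% at least 2-fold lower, and the E15 level was 1.83 times the E12 level (1.64 to 2.03).

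Klf4 was likewise higher at P2 than in both embryonic libraries, but its coronary level in the adult was that of P2. In coronary cells Klf4 stood at 28.4 CPM at E12 (10.4 to 61.7, 6 UMIs), 27.6 CPM at E15 (19.7 to 37.6, 40 UMIs), 307 CPM at P2 (299.5 to 314, 6760 UMIs) and 307 CPM in the adult (294 to 321, 2024 UMIs). The P2 level was 11.1 times the E15 level (8.14 to 15.5), which rests on 40 UMIs and the same limit as for Klf2, and the adult level was 1.00 times the P2 level (0.953 to 1.05). Among cells with no UMI of Fos, Jun or Atf3 at full depth the ratios were 5.92 and 1.56. In endocardial cells Klf4 stood at 30.3 CPM at E12 (23.6 to 38.3), 42.9 CPM at E15 (34.8 to 52.4), 169 CPM at P2 (158 to 181) and 98.9 CPM in the adult (55.4 to 163, 15 UMIs). The endocardial P2 level was 3.93 times the E15 level (3.18 to 4.91), and the adult level was 0.586 times the P2 level (0.327 to 0.972).

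Nos3 varied little from E15 on. In coronary cells it stood at 42.5 CPM at E12 (19.4 to 80.7, 9 UMIs), 80.9 CPM at E15 (66.9 to 96.9, 117 UMIs), 84.2 CPM at P2 (80.4 to 88.2, 1856 UMIs) and 86.6 CPM in the adult (79.6 to 94.0, 570 UMIs). The intervals of E15, P2 and the adult overlapped, with ratios of 1.04 for P2 over E15 (0.864 to 1.27) and 1.03 for the adult over P2 (0.934 to 1.13). A change of coronary Nos3 by more than 1.27 times between E15 and P2 thus lies outside the counting interval. In endocardial cells Nos3 stood at 63.7 CPM at E12 (53.7 to 74.9), 94.4 CPM at E15 (82.1 to 108), 124 CPM at P2 (115 to 135) and 119 CPM in the adult (70.4 to 188, 18 UMIs). The P2 endocardial level was 1.32 times the E15 level (1.13 to 1.55), which is under the 2-fold line. Nos3 is on the list of genes that KLF2 raises, and its coronary ratio of P2 over E15 was 1.04 where that of Klf2 was 6.49. Under the other processing settings coronary Nos3 ranged from 0.846 to 1.11 for P2 over E15. For the adult over P2 it ranged from 0.988 to 1.39. Endocardial Nos3 at P2 over E15 ranged from 1.14 to 1.68.

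**Figure D1:**
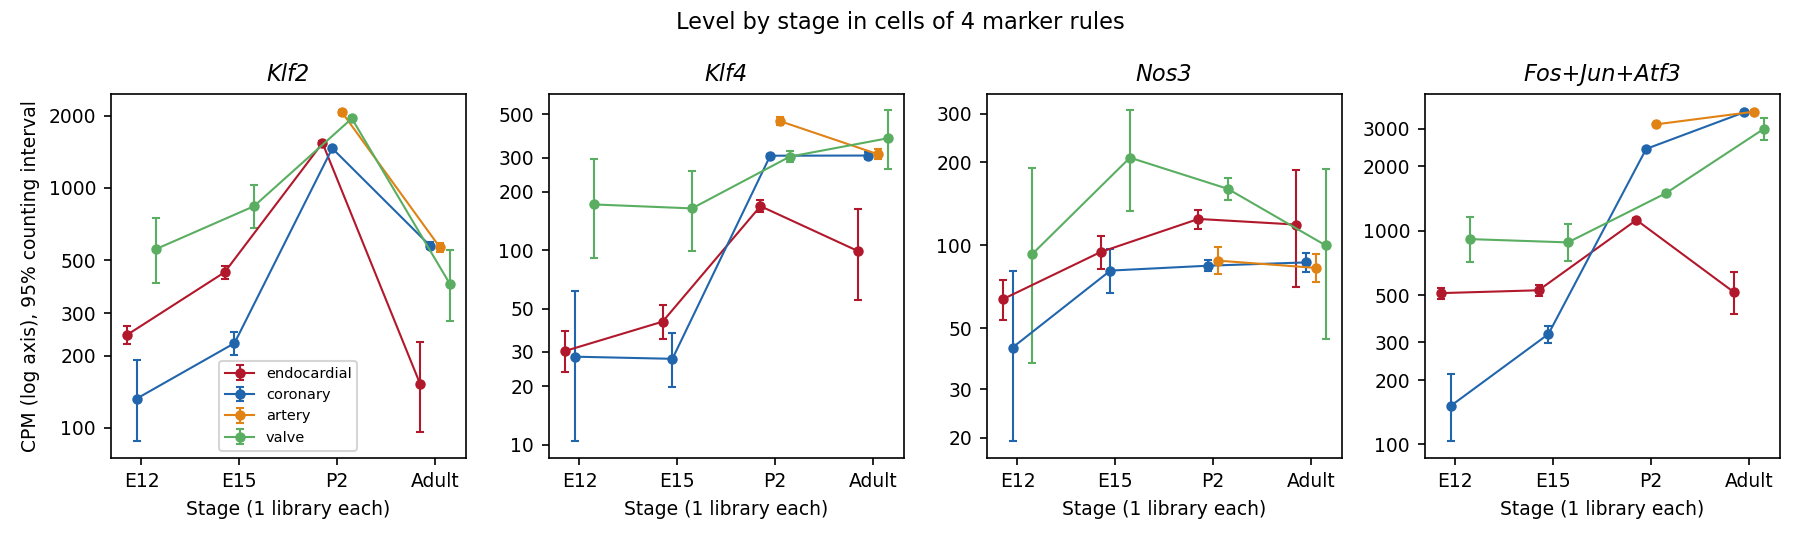
Level of Klf2, Klf4, Nos3 and the sum of Fos, Jun and Atf3 in CPM (log axis) at each of the 4 stages, for cells of the endocardial, coronary, artery and valve rules. Points are 1 library each, bars are 95% counting intervals, lines join points of 1 rule, and artery cells are shown at P2 and in the adult only. Valve cells at E12 and in the adult held more CPM of fibroblast and mesenchyme genes than of endothelial genes. Coronary Klf2 peaked at 1462 CPM at P2, coronary Klf4 was 307 CPM at P2 and in the adult, and coronary Nos3 lay between 80.9 and 86.6 CPM from E15 on.

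The level of Fos, Jun and Atf3 moved with stage too. Their summed level in coronary cells was 151 CPM at E12, 328 CPM at E15, 2417 CPM at P2 and 3584 CPM in the adult. It was 7.36 times as high at P2 as at E15 (6.73 to 8.08), which is close in size to the ratio of Klf2, and 1.48 times as high in the adult as at P2 (1.46 to 1.51), whereas Klf2 was lower there. In endocardial cells the sum was 511, 527, 1123 and 514 CPM. Of 15 genes known to respond to handling, which include Fosb, Junb, Dusp1 and Zfp36, 13 were at least 2-fold higher and none at least 2-fold lower in P2 than in E15 coronary cells. Of all 7666 genes tested 14.7% were higher and 3.2% lower past that line. The median ratio was 4.06 for the 15 genes and 1.27 over all genes tested.

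Klf2 and Klf4 were therefore also compared among cells with alike Fos, Jun and Atf3. Each cell was thinned to 500 UMIs, and cells were split into those with 0, with 1 to 2 and with 3 or more UMIs of these genes, while the levels of Klf2, Klf4 and Nos3 were read at full depth. Among coronary cells with 0 such UMIs Klf2 stood at 215 CPM at E15 and 988 CPM at P2, a ratio of 4.60 (4.08 to 5.21). With 1 to 2 UMIs the ratio was 5.29 (3.98 to 7.21). With 3 or more it was 5.87 (2.01 to 28.5), from 7 cells at E15. Klf4 had ratios of 7.91 (5.53 to 11.8) with 0 UMIs and 5.91 (3.11 to 12.9) with 1 to 2 UMIs. The higher P2 levels of both KLF genes were thus seen in each group that could be compared, and at a smaller size than in all cells (6.49 for Klf2 and 11.1 for Klf4). The cells with 0 UMIs after thinning were not equal at full depth, where their summed Fos, Jun and Atf3 level was 168 CPM at E15 and 823 CPM at P2.

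The lower adult level of coronary Klf2 was also present in each group of cells. The adult level was 0.486 times that at P2 with 0 UMIs (0.461 to 0.512), 0.350 times with 1 to 2 UMIs (0.327 to 0.373) and 0.315 times with 3 or more (0.296 to 0.335). These groups were not equal at full depth either. Their summed Fos, Jun and Atf3 level in the adult was 0.628, 0.911 and 1.88 times that at P2, in the same order. Klf4 gave 1.16 (1.07 to 1.26), 0.873 (0.793 to 0.960) and 0.901 (0.828 to 0.980) in these groups, so its direction turned between them. Nos3 gave 1.11 (0.978 to 1.26), 0.972 (0.807 to 1.16) and 0.898 (0.705 to 1.14), with 1 inside every interval.

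Within a library, where digestion is shared, the 2 KLF genes also went with Fos, Jun and Atf3 from cell to cell. In P2 coronary cells Klf2 was 2.68 times as high with 3 or more of these UMIs as with 0 (2.61 to 2.75), at 2647 against 988 CPM, and Klf4 3.14 times as high (2.96 to 3.34), at 596 against 190 CPM. In adult coronary cells the ratios were 1.74 for Klf2 (1.61 to 1.88) and 2.44 for Klf4, at 537 against 220.3 CPM. Nos3 in coronary cells was not higher with these genes. Its ratio was 0.889 at P2 (0.775 to 1.02) and 0.717 in the adult (0.565 to 0.903), at 68.8 against 95.9 CPM. In P2 endocardial cells it was on the other side of 1, at 1.41 (1.01 to 1.93), from 43 UMIs in 52 cells.

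**Figure D2:**
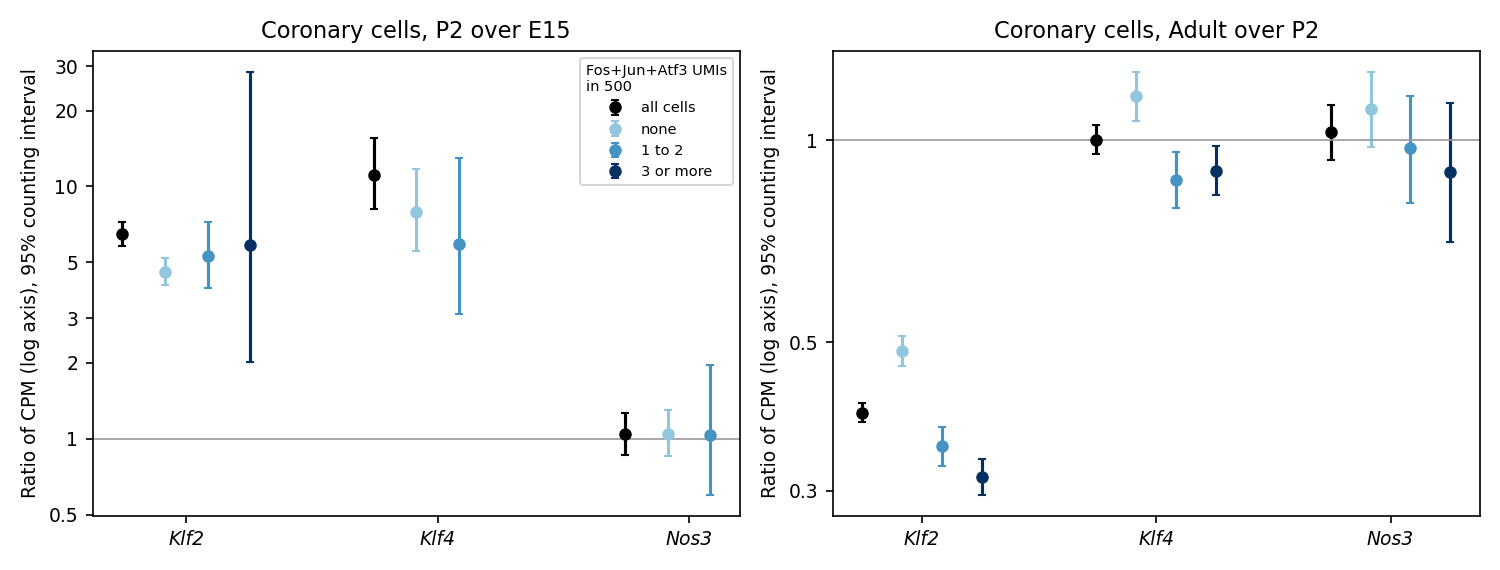
Ratio of CPM in coronary cells between P2 and E15 (left) and between the adult and P2 (right), on log axes with 95% counting intervals, for all cells and for cells with 0, 1 to 2 or 3 or more UMIs of Fos, Jun and Atf3 after thinning to 500 UMIs. Groups with no UMI of the gene at E15 are not drawn. Klf2 lies above 1 on the left, from 4.60 to 6.49, and below 1 on the right, from 0.315 to 0.486, while Nos3 lies at 1 on the left.

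Artery cells carried more Klf2 and Klf4 than other coronary cells at P2, and not in the adult. At P2 Klf2 stood at 2063 CPM in 687 artery cells (2016 to 2110) and 1243 CPM in 2944 other coronary cells (1224 to 1261), a ratio of 1.66 (1.62 to 1.71). Klf4 stood at 462 CPM (440 to 485) and 264 CPM (256 to 273), a ratio of 1.75 (1.65 to 1.85). Fos, Jun and Atf3 were higher in the artery cells as well, at 3148 against 2288 CPM. Among cells with 0 of their UMIs the ratio was 1.61 for Klf2 (1.53 to 1.70) and 1.98 for Klf4 (1.77 to 2.21), and over the other groups the ratios ranged down to 1.44 for Klf2 and 1.31 for Klf4. Of all genes 3.38% were at least 2-fold higher and 2.22% at least 2-fold lower in these artery cells, and no member of the set was past that line. In the adult Klf2 stood at 565 CPM in artery cells and 579 CPM in other coronary cells, a ratio of 0.977 (0.914 to 1.04), and Klf4 at 312 and 302 CPM, a ratio of 1.03 (0.943 to 1.13). Of the adult artery cells 1067 of 1804 also met the mature capillary rule, against 255 of 687 at P2, so the 2 groups differ in make-up. The difference between the P2 and the adult ratio was not tested, as each is 1 library.

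Nos3 was slightly higher in artery than in other coronary cells at P2, at 87.9 against 73.9 CPM (ratio 1.19, 1.05 to 1.35). This ratio was 0.784 with each cell thinned to 500 UMIs before the rules were applied, and 1.01 among cells of 1 rule only, so its side of 1 depends on the setting. Nos3 was not higher in artery cells in the adult, at 82.7 against 89.2 CPM (0.927, 0.780 to 1.10). It was higher in large artery cells, with 119 CPM at P2, 1.61 times the level of other coronary cells (1.48 to 1.75), and in the adult the ratio was 1.17 (0.954 to 1.43). Among P2 cells with 0 UMIs of Fos, Jun and Atf3 that ratio was 1.55 (1.38 to 1.74). The large artery rule is broad at P2, since 635 of its 1897 cells were also endocardial. Bmx, Mgp, Vegfc and Ltbp4, which the rule did not use, stood at 1927 CPM in these cells. They stood at 293 CPM in other coronary and 2159 CPM in endocardial cells, and in the adult at 3645 CPM against 7275 CPM in endocardial cells. These genes thus do not set the group apart from endocardial cells, whose Nos3 was 124 CPM at P2. The part of endocardial cells in the large artery level was not tested.

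Endocardial and coronary cells of 1 library changed places for Klf2 across the 4 stages. Klf2 was higher in endocardial cells at E12 (ratio 1.84, 1.26 to 2.80) and E15 (1.98, 1.74 to 2.25), nearly equal at P2 (1.05, 1.03 to 1.08) and lower in the adult (0.264, 0.167 to 0.397). With cells thinned before the rules were applied, the E12 ratio turned to 0.475 and the P2 ratio to 0.964. The ratio of Fos, Jun and Atf3 also became smaller from E15 to the adult, with values of 1.60 at E15 (1.44 to 1.79), 0.465 at P2 (0.452 to 0.478) and 0.144 in the adult (0.113 to 0.179). In cells with 0 of their UMIs the Klf2 ratio was 1.99 at E15 (1.73 to 2.29), 1.38 at P2 (1.33 to 1.43) and 0.354 in the adult (0.219 to 0.544). With 1 to 2 UMIs it was 1.50 at E15 (1.08 to 2.12) and 1.13 at P2 (1.08 to 1.18), and with 3 or more it was 0.982 at P2 (0.904 to 1.07). The P2 cells with 0 UMIs were not equal at full depth, where the sum was 524 CPM in endocardial and 823 CPM in coronary cells. Klf4 was 1.55 times as high in endocardial as in coronary cells at E15 (1.06 to 2.31), with a ratio of 1.26 (0.793 to 2.04) among cells with 0 UMIs and of 1.04 among cells with none at full depth, and 0.550 times as high at P2 (0.512 to 0.591). Nos3 was higher in endocardial cells at P2, at 1.48 times the coronary level (1.35 to 1.62), and its intervals held 1 at E15 (1.17, 0.927 to 1.48) and in the adult (1.37, 0.807 to 2.19). At E15 10.2% of all genes were at least 2-fold higher and 5.53% at least 2-fold lower in endocardial than in coronary cells, and at P2 6.67% were higher and 7.41% lower, and none of the 3 genes was past 2-fold at either stage.

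Cells that met a valve rule, with at least 2 UMIs of Cldn11, Enpp2, Pthlh and Wnt4, held the most Klf2, Klf4 and Nos3 of the groups at E15, where the interval of Klf2 alone lay above that of the next group. At E15 the 92 valve cells had 839 CPM of Klf2 (680 to 1023), 164 CPM of Klf4 (98.9 to 257) and 208 CPM of Nos3 (133 to 309). Against endocardial cells outside the valve rule these were ratios of 1.93 for Klf2 (1.55 to 2.38), 4.06 for Klf4 (2.33 to 6.71) and 2.26 for Nos3 (1.41 to 3.46). Among cells with 0 UMIs of Fos, Jun and Atf3 the E15 ratios to all endocardial cells were 1.89 for Klf2 (1.44 to 2.44) and 2.09 for Klf4 (0.652 to 5.18), and Nos3 stood at 214 against 97.4 CPM. At P2 the 530 valve cells had 1947 CPM of Klf2 (1898 to 1997), 303 CPM of Klf4 (284 to 324) and 160 CPM of Nos3 (146 to 175). These were 1.37 (1.32 to 1.42), 1.94 (1.75 to 2.15) and 1.41 (1.24 to 1.60) times the levels of endocardial cells outside the valve rule. The endocardial valve gene Nfatc1, which the rule did not use, stood at 234 CPM in E15 valve cells against 42.9 CPM in endocardial cells. At P2 it stood at 91.2 against 65.2 CPM. Summed with Cytl1, Plvap and Hapln1, it gave 986 against 758 CPM at E15. At P2 this sum went the other way, at 954 CPM in valve against 1263 CPM in endocardial cells. Valve cells also held 579 CPM of the fibroblast and mesenchyme genes at E15 and 1359 CPM at P2, where 293 of them were coronary and 181 endocardial by the other rules. At E12 and in the adult these genes stood at 1192 and 5235 CPM, above the endothelial genes at 927 and 2462 CPM. Valve cells of the E12 and adult libraries are therefore cells of that rule only. At P2 382 of the 530 also met the large artery rule, so the P2 valve and large artery levels are in part those of the same cells.

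At P2 the cell groups were ordered differently for the 3 genes. For Klf2 the order was artery (2063 CPM), valve (1947), large artery (1778), vein (1637), endocardial (1539), lymphatic (1465), mature capillary (1416), other coronary (1243), angiogenic capillary (1242) and dividing cells (1112), where the interval overlapped that of the group above for lymphatic, mature capillary and angiogenic capillary cells and for no other group. For Klf4 artery cells stood first at 462 CPM and endocardial cells last at 169 CPM, and the groups from vein (335 CPM) to large artery (297 CPM) overlapped with their neighbours. For Nos3 valve cells stood first at 160 CPM and mature capillary cells last at 66.2 CPM. The sum of Fos, Jun and Atf3 was highest in artery cells, at 3148 CPM, and lowest in endocardial cells, at 1123 CPM. Valve cells, which were second for Klf2 and first for Nos3, had a sum of 1498 CPM. A cell could meet several of these rules, so the groups share cells.

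**Figure D3:**
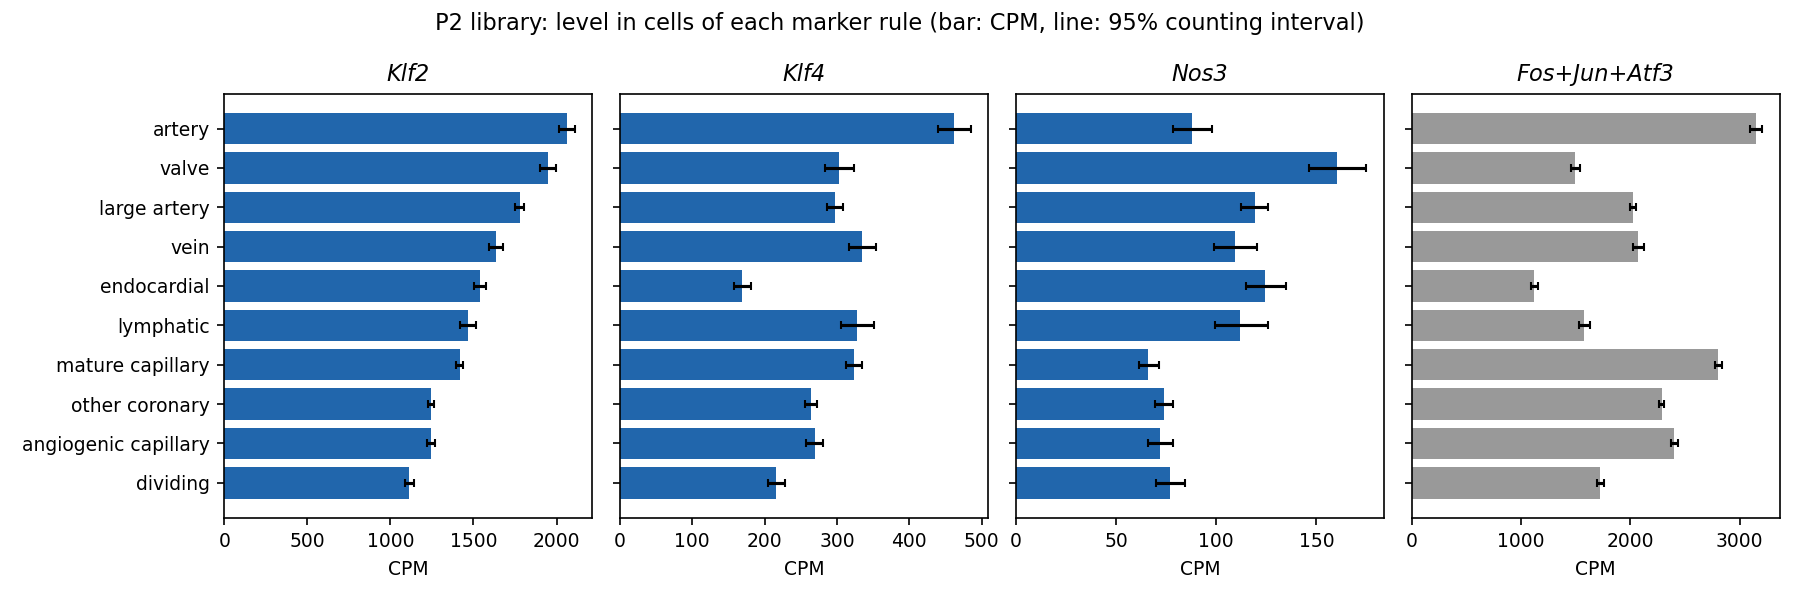
Level of Klf2, Klf4, Nos3 and the sum of Fos, Jun and Atf3 in CPM (axes from 0) in P2 cells of each marker rule, in the order of Klf2. Bars are CPM of the summed UMIs, black lines are 95% counting intervals, and 1 cell can be in several groups. Artery cells lead for Klf2 (2063 CPM) and Klf4 (462 CPM), and valve cells for Nos3 (160 CPM).

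Dividing coronary cells at P2 carried less of both KLF genes than coronary cells outside that rule. Angiogenic capillary cells carried less than mature capillary cells. Coronary cells with at least 2 UMIs of Top2a, Mki67, Ube2c and Ccnb2 had 0.689 times the Klf2 of coronary cells that did not meet this rule (0.669 to 0.708), at 1090 against 1583 CPM, and 0.651 times the Klf4 (0.611 to 0.693), with 0.668 times the Fos, Jun and Atf3 (0.654 to 0.683). In endocardial cells, where 31 were dividing, the ratios were 0.962 for Klf2 (0.854 to 1.08) and 0.938 for Klf4 (0.638 to 1.34). Angiogenic capillary cells, by Kcne3, Apln and Tmem255a, had 1242 CPM of Klf2 against 1505 CPM in mature capillary cells outside that group (0.825, 0.801 to 0.850) and 269 against 344 CPM of Klf4 (0.781, 0.734 to 0.832). Here too Fos, Jun and Atf3 were lower, at 0.836 times (0.819 to 0.854). Their part in these ratios was not tested. Nos3 differed less, at 1.13 times in angiogenic over mature capillary cells (0.986 to 1.30). Angiogenic capillary cells were not lower than other coronary cells, a group with which they share cells. Klf2 stood at 1242 against 1243 CPM and Klf4 at 269 against 264 CPM.

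The study describes coronary cells that come before arteries, uses the chemokine receptor Cxcr4 as one of their markers, and looks at genes induced by flow in them. It reports lower Klf2, Klf4 and Thbd in its cluster of such cells than in its other coronary clusters. That cluster was drawn from many genes over the combined stages and was not rebuilt here. Before clustering, the study removed non-endothelial cells, lymphatic cells and cells expressing immediate early genes, which it took as stressed. Such cells were kept here. Cells with a Cxcr4 UMI are therefore an unlike set, and their values are no check of that result. Coronary cells with a Cxcr4 UMI were 1 in the E12 library, 65 in the E15, 111 in the P2 and 72 in the adult library. After thinning, a Cxcr4 UMI was found in 2.94% of E15 coronary cells (2.03 to 4.10) against 0.375% of stromal cells (0.0454 to 1.35), and in 0.224% of P2 and 0.786% of adult coronary cells, where stromal cells were too few to compare. Cells without a Cxcr4 UMI can still express it, so the split is partial. Klf2 in these cells was 97.4 CPM at E15 against 233 CPM in coronary cells without one (ratio 0.418, 0.179 to 0.834, from 8 UMIs), 1313 against 1466 CPM at P2 (0.896, 0.831 to 0.964) and 457 against 576 CPM in the adult (0.793, 0.595 to 1.04). It was lower in the cells with a Cxcr4 UMI in these 3 libraries, with 1 inside the adult interval and few UMIs at E15. The E15 difference was the largest of the 3, and Fos, Jun and Atf3 were at 1.32 times there (0.909 to 1.87), while at P2 they were lower, at 1828 against 2432 CPM. Klf4 had ratios of 0.426 at E15 (0.0105 to 2.52, 1 UMI), 0.929 at P2 (0.789 to 1.09) and 0.768 in the adult (0.509 to 1.11), each with 1 inside the interval. Nos3 lay on the other side of 1 in all 3, at 1.22 (0.514 to 2.49), 1.16 (0.865 to 1.51) and 1.18 (0.604 to 2.07), also with 1 inside. At P2, 52 of the 111 cells were also artery cells.

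The 3 genes were also read within the same cells. Coronary cells at P2 with a Klf2 UMI after thinning had 2.29 times the Klf4 of those without (2.18 to 2.41), at 457 against 199 CPM, and 1.30 times the Nos3 (1.19 to 1.43), at 97.5 against 74.7 CPM. Their Thbd was 1.57 times as high (1.46 to 1.70) and their Fos, Jun and Atf3 1.85 times (1.82 to 1.88). In the adult the ratios were 1.40 for Klf4 (1.27 to 1.54), 1.04 for Nos3 (0.845 to 1.26) and 1.09 for Thbd (0.986 to 1.21), with 1 inside the intervals of Nos3 and Thbd. In E15 coronary cells the ratios were 2.66 for Klf4 (1.06 to 5.92, 8 UMIs), 1.77 for Nos3 (0.993 to 2.98, 17 UMIs) and 3.33 for Thbd (1.46 to 6.97, 10 UMIs). Fos, Jun and Atf3 were also higher with a Klf2 UMI there, at 1.45 times at E15 (1.08 to 1.91) and 1.54 times in the adult (1.50 to 1.59). Their part in these ratios was not tested. Split the other way, E15 coronary cells with a Nos3 UMI after thinning had 1.91 times the Klf2 of those without (1.21 to 2.90, 24 UMIs), and P2 coronary cells 1.17 times (1.11 to 1.23). In adult coronary cells it was 1.10 times, with 1 inside the interval (0.927 to 1.30). P2 endocardial cells gave 258 against 99.7 CPM of Klf4 (ratio 2.59) and 136 against 116 CPM of Nos3 (1.18, 1.00 to 1.38).

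Shares of cells with a UMI were compared after thinning to 500 UMIs. Klf2 was found in 9.61% of E15 coronary cells (7.95 to 11.5), 42.0% at P2 (40.5 to 43.4) and 23.7% in the adult (22.4 to 25.1). Without thinning the shares were 18.9%, 85.2% and 51.9%, at median depths of 1122, 4522 and 1468 UMIs. Klf4 was found in 1.78%, 13.3% and 13.5% and Nos3 in 4.54%, 4.03% and 3.85% of thinned cells. Fibroblast and mural cells with no UMI of Pecam1, Cdh5 or Egfl7 gave a comparison. At E15 Klf2 was found in 9.36% of 534 such cells (7.03 to 12.2) and Klf4 in 5.24% (3.51 to 7.49), at a median depth of 1302 UMIs. The E15 coronary share lay at the stromal one for Klf2 and under it for Klf4, so neither share puts E15 coronary cells above stromal cells. The stromal and coronary Klf4 shares differed beyond their intervals. Free RNA at E15 was not measured, so its part in either share was not tested. E15 endocardial Klf2, at 16.9% (15.2 to 18.6), was above the stromal share. Nos3 was found in 0.936% of the stromal cells (0.305 to 2.17), which is under the coronary share. In the adult 53 such cells gave 7.55% for Klf2 (2.09 to 18.2) and 13.2% for Klf4 (5.48 to 25.3), so adult coronary Klf4 was not above this share either. Of these 53 adult cells 30 also met the coronary rule, so the 2 adult groups share cells and are not a clean comparison. At E15 only 5 of 542 stromal cells met it before thinning, but 71 of the 542 met the endocardial rule. The E15 endocardial and stromal shares are thus in part those of the same cells. At P2 only 10 such cells were found, and 8 of them were also coronary.

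At E12 the file holds all barcodes, so free RNA could be read directly. The 156821 barcodes with 100 or fewer UMIs held 290 CPM of Klf2 (253 to 332), 57.5 CPM of Klf4 (41.5 to 77.8), 68.5 CPM of Nos3 (50.8 to 90.3) and 914 CPM of Fos, Jun and Atf3. These values give the make-up of free RNA and not its amount in a cell. All 3 genes were at or below them in E12 endocardial and coronary cells, and the part of free RNA in the levels of these cells was not tested. In the same library fibroblast and mural cells with no UMI of Pecam1, Cdh5 or Egfl7 held 51.0 CPM of Klf2, 32.1 CPM of Klf4 and 4.59 CPM of Nos3. Klf2 and Nos3 of E12 endocardial cells, at 244 and 63.7 CPM, were above this stromal level, and Klf4, at 30.3 CPM, was not. Of the 1131 E12 stromal cells 149 also met the endocardial rule, so these groups share cells. Valve cells at E12, with 556 CPM of Klf2 (401 to 752) and 172 CPM of Klf4 (91.7 to 294) in 56 cells, were above the stromal level and that of the barcodes with few UMIs. These 56 cells held 1192 CPM of the fibroblast and mesenchyme genes against 927 CPM of the endothelial genes, and 20 were also endocardial. They are therefore cells of that rule only.

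The genes around the 3 factors were read from lists. Among 9 flow sensors Gna11, a G protein subunit, was the one at least 2-fold higher at P2 than at E15 in coronary cells, at 103 against 49.1 CPM, and 1 of 9 is not above the share of all genes (14.7%). The mechanosensitive channel Piezo1 stood at 52.0 CPM at P2 and 56.7 CPM at E15. In the adult library 2 of 9 sensors were past 2-fold over P2, where 8.7% of all genes were, the sphingosine 1-phosphate receptor S1pr1 (498 against 152 CPM) and the VEGF receptor Kdr (798 against 362 CPM). Of the kinase route 0 of 6 tested genes were past 2-fold between E15 and P2 and 1, Mef2d (2.26), between P2 and the adult. Of the complex that restrains this route 0 of 4 genes were past 2-fold in either coronary comparison. In endocardial cells 2 of the 4, Pdcd10 (2.03) and Heg1 (2.29), were higher at P2 than at E15, where 11.1% of all genes were. At P2 Heg1 was also 2.25 times as high in artery as in other coronary cells, at 247 against 110 CPM. It was the 1 of the 4 past 2-fold there, where 3.38% of all genes were higher.

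Among 12 genes that KLF2 or KLF4 raise, Nos3 included, 8 were tested between E15 and P2 coronary cells. Of the 8, 5 were at least 2-fold higher and none lower, where 14.7% of all genes were higher and 3.2% lower. The 5 were Thbd (4.21), the metalloprotease genes Adamts1 (3.02) and Adamts5 (2.58), the scaffold gene Slc9a3r2 (2.74) and the arginine-making enzyme gene Ass1 (2.28). The median of the 8 was 2.43, against 1.27 over all genes tested. Thbd, whose product turns thrombin into an anticoagulant, was highest in the adult, where Klf2 was below its P2 level. It stood at 29.0 CPM at E15, 122 CPM at P2 and 303 CPM in adult coronary cells, and Slc9a3r2 at 218, 597 and 1219 CPM. Among 6 genes that KLF2 or KLF4 lower, 4 were tested between E15 and P2. Of these 2, the adhesion gene Vcam1 (7.37) and the chemokine gene Ccl2 (8.18), were higher at P2. Between P2 and the adult 5 were tested, and Ccl2 (0.269) and the matrix gene Thbs1 (0.213) were lower in the adult, where 8.64% of all genes were. In P2 artery against other coronary cells the connexin gene Gja4 (18.4) and Ass1 (2.76) of the raised list and the endothelin gene Edn1 (8.72) and Vcam1 (2.08) of the lowered list were all higher. Ccl2 (0.350) was lower. The higher genes were 2 of 9 tested of the raised list and 2 of 3 of the lowered list. Of all genes 3.38% were higher and 2.22% lower there. The targets thus did not all take the direction that the list names give.

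Of 13 genes that serve NOS3, 3 were at least 2-fold higher in P2 than in E15 coronary cells, near the share of all genes (14.7%). They were Gch1 (3.10), whose enzyme starts the synthesis of the cofactor tetrahydrobiopterin, Nostrin (2.35), which moves NOS3 off the membrane, and Ass1, which is also on the list above. In the adult Ddah1 (0.407) and Ddah2 (0.401), whose enzymes remove methylated arginines that block NOS3, were lower than at P2. They were 2 of 13 genes, where 8.64% of all genes were lower. Caveolin 1 (Cav1), which holds NOS3 inactive, was 0.323 times as high in endocardial as in coronary cells at P2, at 693 against 2147 CPM, and Nostrin (0.173) and Gch1 (0.446) were lower too. The arginine carrier gene Slc7a1 (2.17) was higher, so that 1 of 13 genes was higher and 3 were lower there, where 6.67% and 7.41% of all genes were. Of the other nitric oxide synthases Nos1 had no UMI in E15 or P2 coronary cells, and Nos2 stood at 9.12 CPM at P2 and 33.0 CPM in the adult (3.61).

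Of 17 KLF genes 10 were tested between E15 and P2 coronary cells. Of these 5 were at least 2-fold higher, where 14.7% of all genes were. Besides Klf2 and Klf4, Klf9 (5.57), Klf10 (3.88) and Klf11 (5.48) were among them, and none was lower. In the adult Klf6 (2.71) and Klf9 (3.41) were higher than at P2 and Klf2 (0.393) and Klf16 (0.446) lower, 2 of 10 each way, where 8.7% of all genes were higher and 8.64% lower. All 5 KLF genes that were past 2-fold in coronary cells were also past it in endocardial cells between E15 and P2, where 11.1% of all genes were higher. Klf10 (4.54) and Klf4 (3.93) had the largest ratios there.

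**Figure D4:**
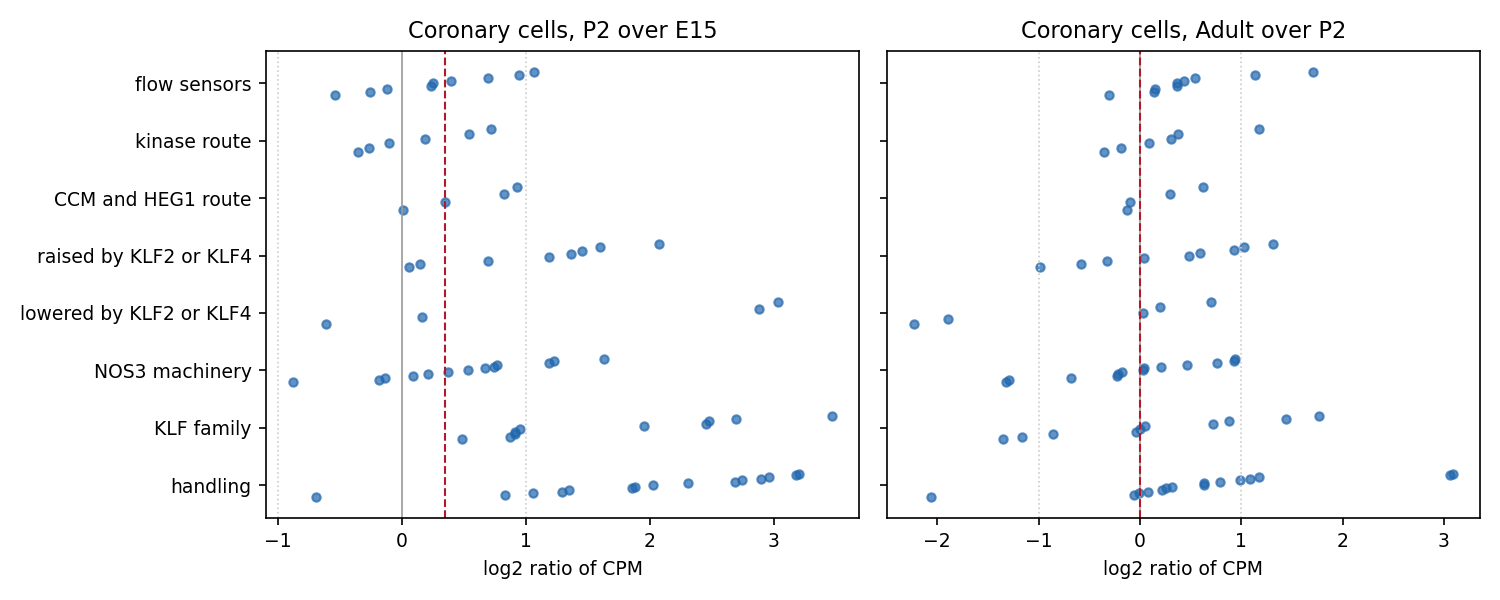
Log2 ratio of CPM in coronary cells for each tested gene of the lists, P2 over E15 (left) and the adult over P2 (right). Points are genes spread vertically within a list, the dashed red line is the median of all genes tested (ratio 1.27 left and 0.999 right), dotted lines mark 2-fold, and Ass1 is on 2 lists. On the left 13 of 15 handling genes and 5 of 10 KLF genes lie past 2-fold, and 0 of 6 kinase genes do. Of all genes tested 14.7% were higher and 3.2% lower past that line on the left.

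The genes most like each factor were sought over 16 groups (endocardial, other coronary, artery and large artery cells at 4 stages), by Pearson's r of log2(CPM + 10) among 5904 genes with a mean of at least 20 CPM. The groups share libraries and depth, and r is given as a description. These groups include the E12 and E15 artery and large artery groups, whose cells go against the label, so r was also taken over the 12 groups without them. Klf4 was most like the early response genes Junb (0.97) and Ier2 (0.97), followed by Gm12216 (0.96), Tob1 (0.96) and Gadd45g (0.96). Over 12 groups Junb (0.97) was still among the first 5, with Ndufv1 (0.98), Ccnl1 (0.97), the cytokine signal inhibitor gene Socs3 (0.97) and Dnajc8 (0.97). Klf2 was most like Fam114a2 (0.93), Man2b1 (0.93), Hbp1 (0.93), Urod (0.92) and Fibp (0.92), and over 12 groups like Afap1l1 (0.96), Ptpra (0.96), Ash2l (0.95), Rab5a (0.95) and Vat1 (0.94). Nos3 was most like Klhl6 (0.96), the endothelial receptor gene Cd93 (0.95), Ctla2a (0.93), Sh3glb2 (0.92) and the endothelial receptor gene Tie1 (0.92). Its lowest level, 2.15 CPM, was that of the E12 artery group, and over 12 groups it was most like Maea (0.97), Zfp950 (0.97), Tmed3 (0.97), Ndufa6 (0.96) and Tcta (0.96). The first 5 genes thus depend on the groups used, for Klf2 and Nos3 wholly. Between the factors r was less dependent on them, at 0.81 over 16 and 0.78 over 12 groups for Klf2 with Klf4, 0.69 and 0.62 for Klf2 with Nos3, and 0.54 in both for Klf4 with Nos3. With Fos it was 0.85 and 0.93 for Klf4, 0.68 and 0.84 for Klf2, and 0.16 and 0.46 for Nos3.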

How the data were processed

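The authors counted UMIs per gene and barcode with Cell Ranger 2.2 on the mm10 reference after 10x Genomics v2 3' sequencing on a HiSeq 4000, and the deposited matrices hold these raw counts for 27998 genes, without normalization. The E15, P2 and adult files hold called cells. The E12 file holds every barcode, and 5732 barcodes above a fixed UMI minimum were taken as cells. Barcodes were kept under the limits given in the study for UMIs, genes and mitochondrial share, at most 4000 UMIs, 1500 genes and 10% for the E12 library, 3000, 1300 and 10% for E15, 12000, 4000 and 20% for P2, and 5000, 2000 and 20% for the adult library. Doublets were left in, and removal by a Scrublet-type score over 0.15 was an alternative (3.77%, 5.00%, 3.35% and 2.33% of barcodes). Non-endothelial cells, lymphatic cells and cells expressing immediate early genes, which the study removed, were also left in. Symbols on 2 rows of the gene table were summed.

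Cells were put into groups by marker UMIs, UMIs were summed per group and given as CPM, and sums have exact Poisson, ratios exact conditional binomial and shares exact binomial (Clopper-Pearson) 95% intervals. They treat UMIs of 1 group as independent, so they are too narrow where cells of a group differ. With 1 library per stage no p-value was computed. A gene was past the line at a ratio of 2 or 0.5 with a mean of the 2 groups of at least 10 CPM. Thinning drew 500 UMIs per cell and left out 70 E12 and 354 E15 cells that were shallower. The genes named are Klf2, Klf4 and Nos3, list genes past 2-fold (at most 6 per comparison, by size), the 5 genes most like each factor, and Fos, Jun and Atf3. The other list genes named, Piezo1, and the genes that overlap Nos3 were chosen after their values were seen. The members and lists were chosen with earlier results of these data known. The ratio and its interval were tested on simulated counts. Analysis used Python 3.11.15, numpy 2.4.6, scipy 1.17.1, pandas 2.3.3 and scikit-learn 1.9.0.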

Additional observations from a re-analysis of the deposited data

Results flagged for a closer look

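The ratio of endocardial to coronary cells turned between libraries for both KLF genes, and the difference between the libraries was not tested, as each stage has 1 library. For Klf2 the ratio of CPM was 1.84 at E12, 1.98 at E15 and 1.05 at P2, with intervals above 1. In the adult it was 0.264, with its interval below 1. The E12 ratio turned to 0.475 and the P2 ratio to 0.964 with cells thinned before the rules were applied. The E12 coronary group also held more of the endocardial marker genes (269 CPM) than of the coronary ones (66.2 CPM). For Klf4 the ratio was 1.55 at E15 and below 1 at P2 (0.550) and in the adult (0.322). Its E15 value was 1.26 (0.793 to 2.04) among cells with 0 UMIs of Fos, Jun and Atf3 after thinning. Among cells with none of these UMIs at full depth it was 1.04. The adult endocardial group held 65 cells, and its summed Fos, Jun and Atf3 level of 514 CPM lay under the adult coronary level of 3584 CPM. The part of these genes in the turn was not tested.

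A signal was also present in E12 barcodes with 100 or fewer UMIs, which belong to none of the cell groups. They held 290 CPM of Klf2, 57.5 CPM of Klf4 and 68.5 CPM of Nos3.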

How the results depend on the processing

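No paired analysis was possible because each stage has 1 library and all carry the same replicate number. For the same reason no library could be left out. Of 36 ratios, 23 had an interval that leaves out 1, and 247 of the 251 values these took under 11 alternatives lay on the same side of 1. Removing doublets or the upper limits on barcodes moved none of the 36. The cause of the moves below was not tested. A required 4-fold marker excess and the equal Fos, Jun and Atf3 weights were added after seeing the data, as was the search for like genes without the embryonic artery groups.

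With cells thinned to 500 UMIs before the rules were applied, 4 ratios turned, namely Klf2 in coronary cells at E15 over E12 (0.406), Klf2 in endocardial over coronary cells at E12 (0.475) and P2 (0.964), and Nos3 in P2 artery over other coronary cells (0.784). Thinning moved 15 further ratios, among them coronary Nos3 to 0.846 (P2 over E15), coronary Klf2 to 0.408 (adult over P2), endocardial Klf2 and Nos3 to 3.08 and 1.68 (P2 over E15), Klf4 in P2 artery over other coronary cells to 1.88 and Nos3 in E15 endocardial over coronary cells to 0.865. Among the others were endocardial Klf4 at E15 over E12 (3.41) and Nos3 in adult endocardial over coronary cells (0.608), both with few UMIs.

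In cells with no Fos, Jun or Atf3 UMI the coronary ratios of P2 over E15 were 3.45 for Klf2 and 5.92 for Klf4, those of the adult over P2 were 0.738 for Klf2, 1.56 for Klf4 and 1.39 for Nos3, endocardial Klf2 at P2 over E15 was 2.69, P2 artery over other coronary cells gave 2.05 for Klf2 and 2.32 for Klf4, and Klf4 in E15 endocardial over coronary cells was 1.04. With equal weights of Fos, Jun and Atf3 groups the coronary ratios were 4.72 and 7.60 for Klf2 and Klf4 at P2 over E15, 0.461 and 1.11 at the adult over P2, and 1.59 for Klf2 in artery cells.

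In cells of 1 class only, coronary Klf2 was 5.68 (P2 over E15) and 0.466 (adult over P2), coronary Klf4 and Nos3 were 1.14 and 1.21 (adult over P2), endocardial Klf2 was 3.10, and the P2 artery ratios were 1.43 for Klf2, 1.56 for Klf4 and 1.01 for Nos3. CPM without mitochondrial, ribosomal and hemoglobin genes gave Klf2 ratios of 5.43 and 0.378 in coronary and 2.98 in endocardial cells. Artery thresholds 1 UMI higher gave 1.73 for Klf2 and 1.92 for Klf4, the mean of per-cell CPM gave 0.415 for coronary Klf2 (adult over P2), and a required endothelial UMI gave 3.22 for endocardial Klf2. Depth limits the E12 coronary and adult endocardial values, which rest on 107 and 65 cells.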
